A study of Equus caballus with 26 samples.

Results

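The resting blood transcriptome was described from the 10 arrays taken at T0, before the ride, out of 26 arrays of 23 horses (Equus caballus). All arrays labelled T0 were used. Arrays of a later time entered the description only through the choice of the brightest probe of each gene, made over all 26 arrays. The animals were endurance horses entered in 160 km rides, and whole blood was collected into PAXgene tubes at rest (T0) or right after the ride (T1). One RNA sample of one horse, labelled with Cy3, was hybridised to each custom equine 44K array. The 10 resting horses comprised 7 of the validation set (animals 13, 14, 15, 18, 29, 40 and 47) and 3 of the training set (animals 2, 32 and 41). Animals 14, 15 and 29 were females and the other 7 were geldings. No horse had received a treatment named in the labels. The 3 training horses were also sampled at T1, and the 13 other T1 arrays came from other horses (3 females and 10 geldings). Apart from the choice of probe, those arrays were read only to see whether a pattern at rest recurred.

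Whole blood RNA comes from a mixture of circulating cells. Neutrophils and lymphocytes are the most numerous white cells of horse blood, monocytes, eosinophils and basophils are rarer, and each contributes its own transcripts. Red cells are abundant but carry little RNA, and horse blood holds very few reticulocytes, since equine red cells mature in the marrow. In bulk blood, fewer cells of a type and less RNA per cell cannot be told apart.

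A level is given throughout as the log2 processed signal of the brightest probe of a gene minus the 75th percentile of its array. A level of 0 thus equals that percentile, and 1 unit is a 2-fold difference. The 75th percentile of the log2 signal lay between 8.75 and 9.74 in the resting arrays, and 65.8% to 72.9% of probes were well above background. No spot was saturated at T0. The median SD of repeated spots of a probe was 0.044 to 0.058 in each array. Correlations between pairs of resting arrays lay between 0.94 and 0.99, given as a description across genes. The array of animal 47 stood farthest from the others, with a root mean square deviation from the gene means of 0.64 against 0.58 in animal 32, 0.55 in animal 40 and 0.35 to 0.46 in the remaining animals. Values that moved most when animal 47 was left out are given with and without it.

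Most of the genes represented on the array gave a signal in resting blood. Of 24415 gene names, 15232 (62.4%) had a probe well above background on all 10 arrays and 4327 (17.7%) on none. Without animal 47 these counts were 15257 and 4509. The level of a probe depends on its own sequence, so the order of levels is not an order of RNA amounts.

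The 20 named genes with the highest mean level included transcripts of the translation machinery, an antimicrobial peptide of neutrophils and calcium-binding proteins. RN18S, the 18S ribosomal RNA, had levels from 9.57 to 10.52 with a median of 10.03. Among protein-coding genes the signal was highest for SCPEP1, a serine carboxypeptidase (8.85 to 9.72, median 9.24). LAPTM5, a lysosomal membrane protein of blood cells, ranged from 8.63 to 9.41. ECATH-3, an equine cathelicidin and thus an antimicrobial peptide stored in neutrophil granules, ranged from 8.50 to 9.50.

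Ribosomal proteins gave 6 of these 20 names (RPLP1, RPS19, RPS28, RPL7A, RPLP0 and RPL10), and EEF1A1, the elongation factor that delivers aminoacyl-tRNA, was also among them. FTH1, the ferritin heavy chain that stores iron, and CYBA, a subunit of the phagocyte NADPH oxidase, were joined by the calcium-binding proteins S100A4 and S100P. The remaining names were HSPG2, GCNT1, LRRC26, MILL and GJD3. Most of the 20 differed little between animals, with SDs from 0.24 (FTH1) to 0.42 (GJD3). S100P was the exception, with an SD of 0.71 and levels from 7.58 in animal 32 to 9.86 in animal 41. Without animal 47, 19 of the 20 names remained and GJD3 left the list.

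Markers of solid tissues were detected in part. Of 15 liver genes on the array 3 were well above background in all 10 animals and 5 in none, and the corresponding counts were 3 and 5 of 14 skeletal muscle genes, 2 and 5 of 9 brain genes, 1 and 3 of 7 epithelial genes, 1 and 2 of 6 pancreas genes, 5 and 1 of 11 connective tissue and endothelium genes and 3 and 2 of 9 germ line genes. Among the liver genes, ALB, FGB, FGG, TF and F9 (albumin, fibrinogen chains, transferrin and a clotting factor) were well above background on no resting array. The same held for the muscle genes MYL1, MYL2, TNNT3, MB and DES, for the brain genes GFAP, NEUROD1, NEFM and MAP2, for the keratins KRT5 and KRT1 and for CDH1, the cadherin of epithelia. Of 28 secreted cytokine genes on the array, 17 were well above background in all 10 animals, a share near the 62.4% of all gene names, and 8 in none. The latter were IFNG, IL1A, IL5, IL9, IL12B, IL17A, IL17F and IL22, which activated lymphocytes or myeloid cells secrete.

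Markers of the main white cell types were detected. All 18 neutrophil, all 19 T cell, all 18 cytotoxic lymphocyte, all 17 B cell and all 13 monocyte genes on the array were well above background in every resting animal. The platelet and erythroid lists were detected in part. PPBP and GP6 were well above background on no array among 15 platelet genes. Among 20 erythroid genes, SLC4A1, EPB42, CA1, TFRC and RHAG, which encode red cell membrane proteins, carbonic anhydrase and the transferrin receptor, were well above background on none, while 9, among them the globins HBB and HBA2 and the heme synthesis enzyme ALAS2, were detected in all animals. EPX, the eosinophil peroxidase, and SDC1, a plasma cell surface marker, were also well above background on none, as were XCR1 and ZBTB46 among 9 dendritic cell genes. Of 10 neutrophil granule genes 7 were detected in all animals, while OLFM4 was well above background on 6 arrays, PRTN3 on 5 and ARG1 on 1. OLFM4, the granule protein olfactomedin 4, ran from -7.92 in animal 32, where it was a bound, to -2.06 in animal 47.

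The difference between resting animals was modest for most genes. Over the 15156 gene names whose brightest probe was well above background on all 10 arrays (9283 with a symbol), the median SD was 0.41 and the median distance from the lowest to the highest animal was 1.30, a 2.47-fold range. The SD lay at 0.21 at the 5th percentile and at 0.84 at the 95th, and 315 gene names (2.08%) exceeded 1. Leaving out animal 47 lowered the median SD of the same genes to 0.38, and normexp background correction with quantile normalization gave a median of 0.27. Dim genes varied more than bright ones, with a median SD that fell from 0.47 in the dimmest to 0.37 in the brightest of 4 equal classes of mean level.

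The least variable genes had levels within a narrow interval in all 10 animals. CCDC47, a protein of the endoplasmic reticulum, had levels from -0.56 to -0.27 (SD 0.09). CRNKL1, a splicing factor, ranged from -0.68 to -0.33. TINF2, a telomere protein of the shelterin complex, POC5, MAPK1IP1L, NDST2, FAF1, HLTF and RMND1 were also among the 10 lowest, with SDs between 0.10 and 0.12. All 10 had SDs below the median in the 13 other horses at T1.

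The plot of levels by animal shows 25 named genes with large SDs, and they encode products of several kinds. SLC25A3, with an SD of 1.66 at the dimmer of its gene names, was not counted among these 25, because a brighter gene name stood for it. It is described below. SDs of the 25 ranged from 3.12 (EQMHCC1) to 1.40 (MTMR2) against the median of 0.41. With normexp and quantile normalization the SD was 0.57 for MTMR2, 1.05 for MMP27 and 1.04 for THY1. CLEC4E (1.93) and IGHE (1.42) changed little under that setting. With the mean of probes the SD of MLN was 0.80 against 1.47. The 25 were chosen by their SD, which is given as a description. Of the 25, 15 remained among the top 25 without animal 47, and the 10 lost were UPP1, MMP27, RETN, SPI2, C1QA, MMP8, TGM3, TBC1D2, MLN and ARMC12. In the 13 horses sampled only at T1, which had no part in the choice beyond that of the probe, all 25 had an SD above the median of 0.40. Of the 25, 14 were above the 95th percentile of 0.93. The array of animal 34, among these 13, had 431 saturated spots and a highest level of 7.25. Without it the SDs of the 25 at T1 lay between 0.50 (RETN) and 3.07 (EQMHCC1). Over 15131 gene names the Spearman correlation of the SD at T0 and in the 13 other horses at T1 was 0.60, across genes that are not independent.

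**Figure D1:**
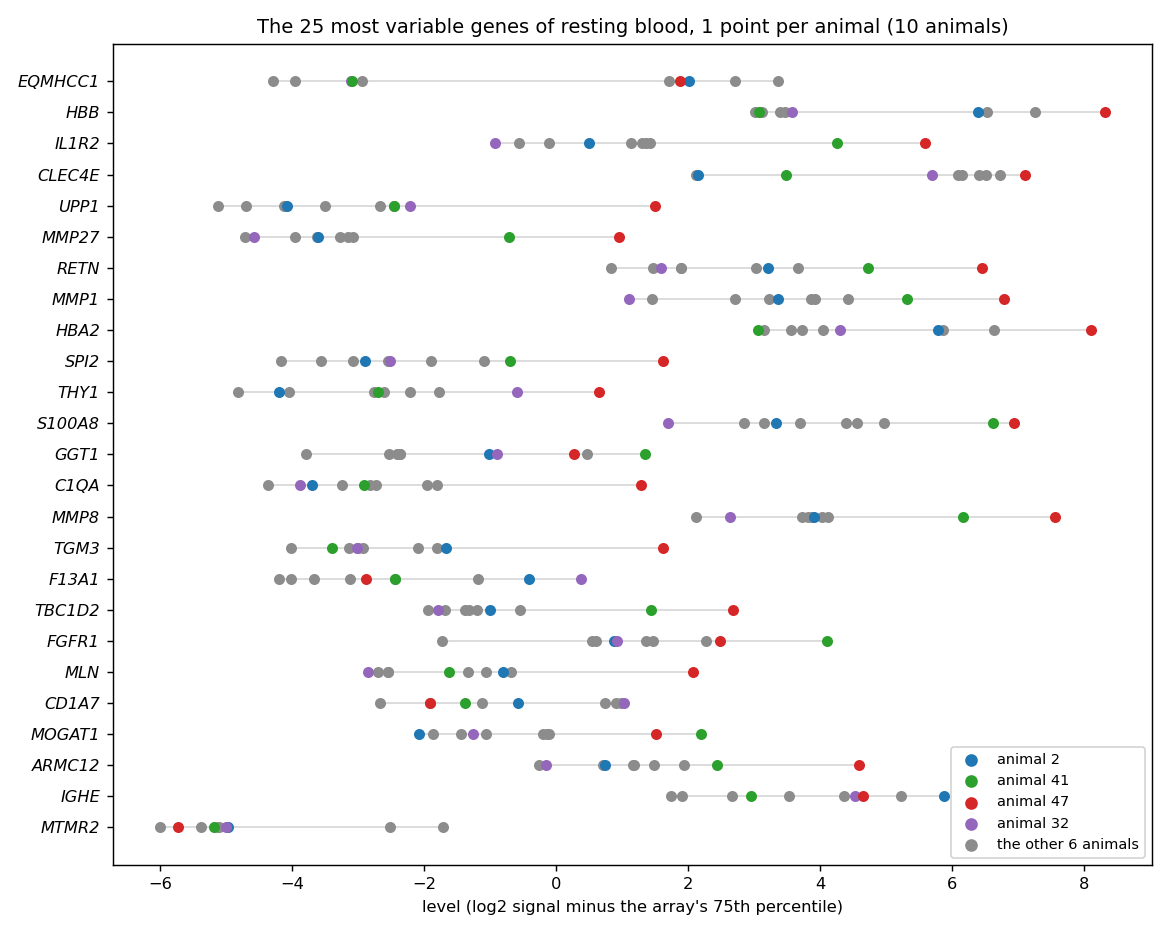
Levels (log2, relative to the 75th percentile of each array, x axis) of 25 named genes with large SDs at rest, with 1 point for each of 10 animals. SLC25A3 (SD 1.66) is not among them. EQMHCC1 splits into 5 high and 5 low animals, and animal 47 (red) is the highest for many of the others.

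Globin transcripts were among them. HBB, the beta globin chain, had a lowest level of 3.01, a median of 3.52 and a highest level of 8.32. Animals 2, 15, 18 and 47 lay between 6.39 and 8.32, and the 6 other animals between 3.01 and 3.58, with no overlap. HBA2, an alpha globin gene, ran from 3.06 to 8.10 with a median of 4.17, and the same 4 animals were the highest. The other probes of HBB followed the brightest one, each with a correlation of 0.988 or higher. At T1 animals 32 and 41, low for HBB at rest, had levels of 7.22 and 6.82, so their position was not kept.

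Several genes had their highest levels in animals 47 and 41. IL1R2, the decoy receptor that binds interleukin 1 without signalling, had a lowest level of -0.93, a median of 1.22 and a highest level of 5.59. Animals 47 (5.59) and 41 (4.26) stood above the 8 others, which did not exceed 1.42. MMP8, the neutrophil collagenase, showed the same order, at 7.55 in animal 47, 6.17 in animal 41 and 2.11 to 4.11 in the others. MMP27, another matrix metalloproteinase, also had its highest levels in animals 47 and 41.

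S100A8, a subunit of the antimicrobial protein calprotectin, ranged from 1.69 (animal 32) to 6.94 (animal 47) with a median of 4.05. RETN, the cytokine resistin, ranged from 0.84 to 6.44 (median 2.46), and MMP1, the interstitial collagenase, from 1.11 to 6.79 (median 3.60). Both were highest in animal 47 and next highest in animal 41. C1QA, a chain of complement component C1q, was at 1.29 in animal 47 and at most -1.81 in the other 9. UPP1, which degrades uridine, was at 1.502 in animal 47 and at most -2.21 in the others. For 6 of the 25 the SD over all animals was more than 1.5 times that without animal 47. The SD went from 1.57 to 0.78 for TGM3, from 1.59 to 0.85 for C1QA, from 1.87 to 1.08 for UPP1, from 1.47 to 0.87 for MLN, from 1.41 to 0.89 for ARMC12 and from 1.77 to 1.17 for MMP27.

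Several variable genes followed other animals. F13A1, the A subunit of coagulation factor XIII, was highest in animals 32 (0.38) and 2 (-0.42) and lowest in animal 40 (-4.19). IGHE, the heavy chain of immunoglobulin E, ranged from 1.74 in animal 13 to 5.88 in animal 2 with a median of 3.94. FGFR1, a growth factor receptor, ranged from -1.73 in animal 15 to 4.10 in animal 41. GGT1, which cleaves glutathione, ranged from -3.79 in animal 13 to 1.34 in animal 41. CD1A7, which presents lipid antigens to T cells, was between 0.75 and 1.04 in animals 14, 15, 29 and 32 and at most -0.57 in the 6 others.

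The remaining members were SPI2, THY1, TGM3, TBC1D2, MLN, MOGAT1, ARMC12, CLEC4E, MTMR2 and the leading gene, EQMHCC1. Animal 47 was the highest for SPI2, THY1, TGM3, TBC1D2, MLN, ARMC12 and CLEC4E.

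EQMHCC1, an equine major histocompatibility complex class I heavy chain gene, whose products present peptides to cytotoxic T cells, varied most. Its lowest level was -4.29, its median -0.61 and its highest level 3.36. Animals 2, 15, 18, 29 and 47 lay between 1.72 and 3.36, and animals 13, 14, 32, 40 and 41 between -4.29 and -2.94. The lowest high animal exceeded the highest low one by 4.66 log2 units. All 10 arrays were well above background for it. Animal 2, high at rest, was at 2.23 at T1, and animals 32 and 41, low at rest, were at -4.11 and -3.64. Among the 13 other horses at T1, 9 were above and 4 below the midpoint of the resting gap, so that 14 of the 23 horses were high and 9 low, with an empty interval of 3.65 between them. Among the 5 gene names most like it over the 10 resting arrays were LRP1 (r = 0.84), AXIN2, IL4 and ZFP36L1. In the 13 other horses the correlations of these with EQMHCC1 lay between -0.28 and 0.26.

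A split of this kind was then searched for in all detected genes. Gene names well above background on all 10 arrays were counted when an empty interval of at least 2 log2 units separated at least 2 animals on each side, a rule chosen after the values of EQMHCC1 had been seen. It held for 17 of 15156 gene names (0.112%), 9 of them with a symbol. For 9 of the 17, all 3 horses sampled at both times stayed on the same side at T1. In 6 of these 9, among them EQMHCC1, CLEC4E and SLC25A3, the 3 horses were on both sides at rest. In the other 3 they shared a single side, low for MTMR2 and high for JL616107 and CD469289, so that for these the horses show 1 of the 2 levels only.

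CLEC4E encodes Mincle, a C-type lectin of myeloid cells that senses mycobacterial glycolipids and dying cells. Animals 2, 15 and 41 had levels of 2.15, 2.12 and 3.48, and the 7 others lay between 5.70 and 7.11. At T1 animals 2 and 41 were at 2.63 and 3.43 and animal 32 at 6.53. Over all 23 horses 16 were high and 7 low, with an interval of 1.38 between the sides. A pair of probes carried the gene, and their correlation over the resting arrays was 0.999.

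SLC25A3, the mitochondrial phosphate carrier, was at -3.78, -3.64 and -3.66 in animals 14, 29 and 41 and between -1.09 and 0.39 in the others. Of the 23 horses 16 were high and 7 low for it. Another gene name with the symbol SLC25A3 had a brighter probe and no such split. Its levels lay between 3.55 and 4.38 (SD 0.25), with animals 14, 29 and 41 at 4.37, 4.15 and 4.13. MTMR2, a phosphoinositide phosphatase, was at -2.52 in animal 15 and -1.71 in animal 40 and at most -4.97 in the other 8. The high side of MTMR2 held 3 of the 23 horses. Animal 41 was low for EQMHCC1, CLEC4E and SLC25A3, animal 14 for EQMHCC1 and SLC25A3, and the 6 other low animals for 1 of these genes each.

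HBB, IL1R2, MMP27 and MMP8 also met the rule at rest, but for each of them 1 of the 3 horses was on its resting side at T1. The high side of IL1R2, MMP27 and MMP8 at rest held animals 41 and 47 alone. All 13 other horses lay above the midpoint for these genes at T1.

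The probes of the genes that split the animals are shown because each value above is the signal of a sequence of 60 bases. Such a signal depends on how well the transcript of an animal matches the probe as well as on its amount, and the genotypes of the animals were not analysed here. For EQMHCC1, CLEC4E, MTMR2, EPCAM and LOC100050706, a difference in sequence and a difference in transcript amount therefore cannot be told apart. For SLC25A3 the split was seen at the dimmer gene name and not at the brighter one, and its cause was not tested. They are written 5′ to 3′ from the array files, with places as the files give them on build EquCab1, not checked against a genome. The EQMHCC1 probe is placed at chr20:24493960-24494143, minus strand, a span longer than the probe. The CLEC4E probes are placed at chr6:35390877-35390936 and chr6:35390821-35390880, plus strand, and capitals mark the 4 bases they share.
EQMHCC1: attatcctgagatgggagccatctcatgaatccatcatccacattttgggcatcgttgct
CLEC4E, brighter probe: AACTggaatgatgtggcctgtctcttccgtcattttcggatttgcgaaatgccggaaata
CLEC4E, other probe: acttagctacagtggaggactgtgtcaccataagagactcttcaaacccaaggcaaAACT

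Other genes were well above background in some animals and not in the rest. Of 24415 gene names, 1753 were well above background on 3 to 7 of the 10 arrays, and 19 of them (0.0778% of all) had a gap of at least 2 log2 units between the animals above background and those not. With normexp and quantile normalization 3 met this rule, and a gap of 1 log2 unit gave 64. Of these 19, 11 had a symbol and 4 were below it in precisely the 3 females. In 11 of the 19, all 3 horses sampled again were on the same side at T1, but in 5 of these 11 all 3 were above at rest, in 5 all 3 were below, and in 1 they were on both sides. Over the 19 gene names, a horse above at rest was above the midpoint of the gap again in 18 of 26 cases, and one below was below it again in 30 of 31. RALYL in animal 2 and SPMAP1 in animal 41 were above at rest and below at T1. The named ones were EPCAM, RALYL, SPMAP1, GPM6A, MYH7, KDM5D, ANO1 and the olfactory receptor genes OR10G9, OR4F14Q, OR5G3B and OR51V28. The olfactory receptors were each above background in 3 animals. A level below background is a bound and not a measured amount.

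EPCAM, the epithelial cell adhesion molecule, had the widest gap among genes with a symbol. The 7 geldings ranged from -0.61 to 0.92, and animals 14, 15 and 29 were at -7.69, -6.58 and -7.90 and not well above background. The interval between the sides was 5.96. The other EPCAM probe followed the brightest one (r = 0.99). A transcript named DN511173, whose 5 probes lie at chr15:48282876-48282946, next to the EPCAM probes on the same strand, placed all 23 horses on the same sides as EPCAM did. Of the other 6 epithelial genes on the array, CLDN4 was well above background on all 10 arrays, KRT14 on 9, MUC1 on 6 and KRT5, KRT1 and CDH1 on none.

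KDM5D, a histone demethylase encoded on the Y chromosome, was at -3.99 to -2.29 in the 7 geldings and at -7.76 to -7.20 in the 3 females, where it was not well above background. The EPCAM probe shown is the dimmer one, which followed the brightest probe but did not give the EPCAM levels above. It is placed at chr15:48284409-48286801, minus strand, a span longer than the probe. The KDM5D probe has no place in the array files. Both probes are shown because the difference between the animals rests on such probes.
EPCAM: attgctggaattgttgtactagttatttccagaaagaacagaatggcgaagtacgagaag
KDM5D: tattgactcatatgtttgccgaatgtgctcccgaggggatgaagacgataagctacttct

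**Figure D2:**
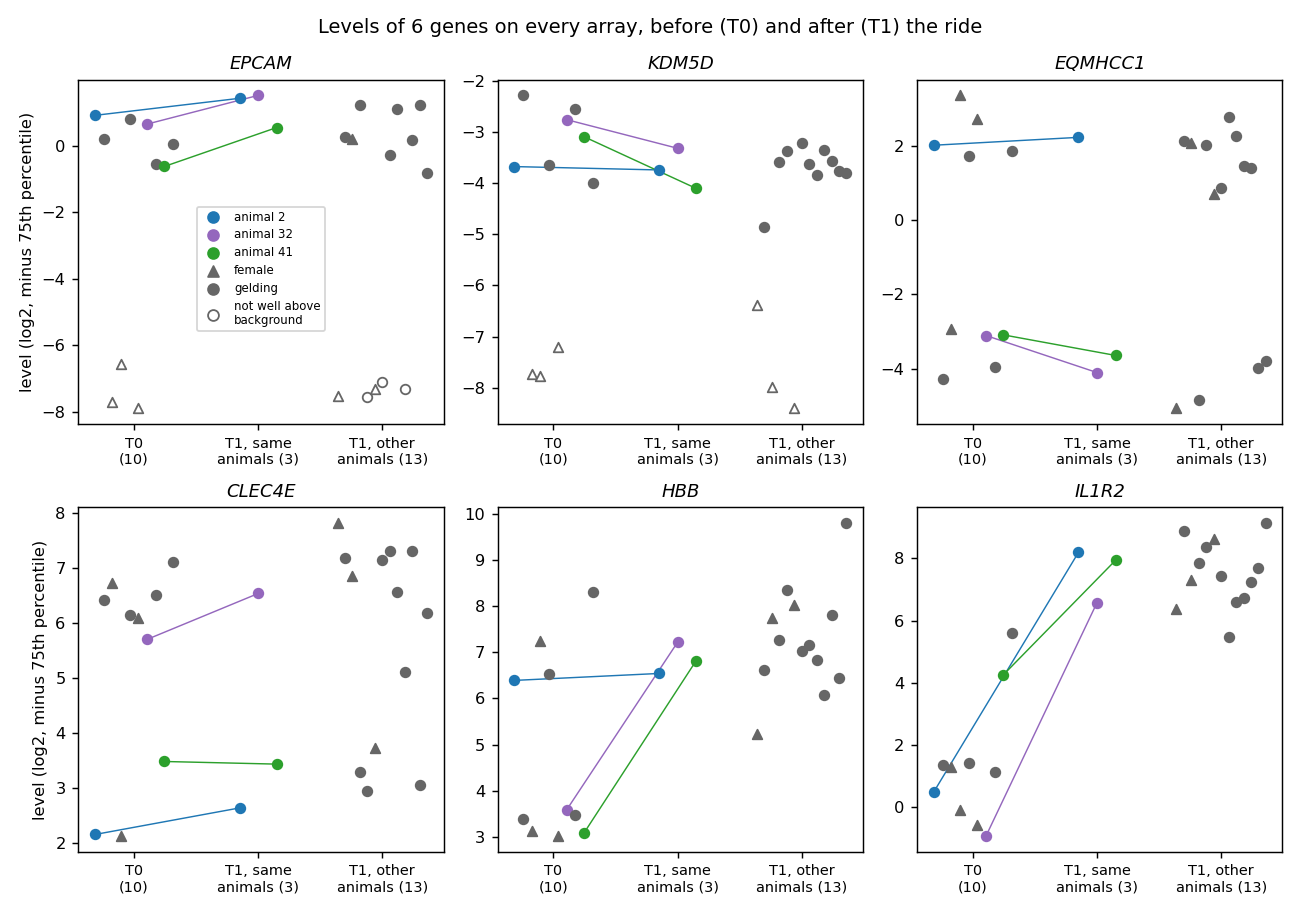
Levels (log2, relative to the 75th percentile of each array, y axis) of 6 genes on all 26 arrays, with T0 arrays, T1 arrays of the same 3 animals (joined by lines) and T1 arrays of 13 other animals on the x axis. EQMHCC1 and CLEC4E keep 2 separate levels after the ride, EPCAM is not well above background in the 3 resting females, and at T1 in 2 of 3 females and in 3 geldings, and HBB and IL1R2 lose their resting split.

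The females and geldings were compared at rest in limma with the set as a term. Of 17879 gene names tested, 7 (0.0392%) were lower in the females and 0 were higher at an adjusted p under 0.05, and 1907 had an unadjusted p under 0.05. JL617082 (-7.80 ± 0.38 SE, adjusted p = 3.74e-06) and EPCAM (-7.53 ± 0.46, adjusted p = 2.21e-05) had the lowest adjusted p by limma. CX603680 (-5.00 ± 0.34) and DN511173 (-7.38 ± 0.50) followed, each at a limma adjusted p of 3.91e-05. JL616107 (-3.73), KDM5D (-4.45, limma adjusted p = 0.000879) and the probe A_69_P102951 (-2.48) were the others. Because 5 of the 7 were not well above background in any female, their fitted differences are not measured folds. These 5 met the detection filter through the geldings alone, and their SEs and p-values rest on female values near background. On the processed signal the geldings were at least 104-fold higher for EPCAM, 79.9-fold for JL617082, 28.4-fold for CX603680 and 10.5-fold for KDM5D, with the geldings' mean set against the lowest signal counted as well above background. No fold is given for A_69_P102951, which was well above background in 5 of the 7 geldings. This probe also lost its call when animal 14 or animal 29, both females, was left out. With normexp and quantile normalization, which adds an offset of 50 to every signal, the differences were smaller, at -3.18 for EPCAM, -2.98 for JL617082, -1.68 for CX603680, -0.99 for KDM5D and -0.26 for A_69_P102951, and the last 3 did not pass. In the deposited table these 5 differences were -3.28, -3.05, -1.74, -1.02 and -0.26, and again the last 3 did not pass. One female (animal 14) and one gelding (animal 47) were scanned on the same day, and EPCAM and KDM5D were at 0.07 and -3.99 in animal 47 and not well above background in animal 14. The number of genes past the threshold was 4 with normexp and quantile normalization and 1 among genes well above background on all arrays. EPCAM and DN511173 lost their calls when all 26 arrays were fitted with the animal as a random block.

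The T1 arrays did not treat these genes alike. There, in the same kind of fit over 16 arrays, 6 of 18615 gene names (0.0322%) passed. JL617082, CX603680, JL616107 and KDM5D were again lower in the 3 females, with all 10 geldings not seen at rest above the resting midpoint and all 3 females below it. The adjusted p for KDM5D by limma was 4.66e-05, again with no female well above background. EPCAM did not pass (-2.97 ± 2.14, limma adjusted p = 0.64). Of the 13 other horses, EPCAM was low in 2 females and 3 geldings (animals 1, 17, 19, 21 and 44) and high in 1 female and 7 geldings. Over all 23 horses 15 were high and 8 low, with no horse in the interval of 5.77 between them. OFD1, a protein of the centriole, was lower in females by limma at T1 (-1.38, adjusted p = 0.000527) and had a difference of -1.37 at rest that did not pass (adjusted p = 0.23). SRY, the Y-linked testis-determining gene, did not separate the sexes, since its brightest probe was well above background in 2 females and 3 geldings.

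The B cell list was also read against sex. Of its 17 genes, 16 had a positive difference (higher in females) at rest and 0 passed the test, with a median of 0.71 against 0.09 over all gene names tested, of which 58.4% had a positive difference. Of 19 T cell genes, 16 had a positive difference and 0 passed (median 0.38). The neutrophil list went the other way, with a positive difference in 6 of 18 genes and 0 passing (median -0.33). CD79B, a chain of the B cell receptor complex, was at 0.69 to 1.18 in the 3 females and at -1.50 to 0.49 in the 7 geldings, without overlap (1.92 ± 0.34, limma adjusted p = 0.23). All females lay above all geldings for 0.755% of the 17879 gene names. At T1 the difference in CD79B was 0.57 (limma adjusted p = 0.80), with the females at -2.27 to -1.35, inside the geldings' range of -5.36 to -0.50. CD79A, its partner chain, was at 0.84 to 1.12 in females and -1.05 to 0.32 in geldings (limma adjusted p = 0.32). At T1, 14 of the B cell genes had a positive difference and 0 passed, with a median of 0.48 against 0.10 for all gene names (62.01% positive). The T cell genes at T1 had a positive difference in 9 cases and a median of -0.17, and the neutrophil genes in 7 cases with a median of -0.10.

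The validation and training sets were compared at rest by limma with sex as a term. Of 17879 gene names 0 passed in either direction (0.0%), and 950 had an unadjusted p under 0.05.

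Some genes were far from the rest in 1 animal alone. Levels at least 2 log2 units outside the range of the other 9 were found above that range for 37 gene names in animal 47 and for 1 to 9 in each other animal. Levels as far below it were found for 0 gene names in animal 47 and for 0 to 4 in each other animal. The 3 training horses allowed a second look at T1. Of the 14 gene names that one of them held far above the others at rest, 0 kept that position, among them NTF3, STIMATE and DENND2A in animal 2. Of the 7 held far below, 6 kept it. LOC100050706 was at 0.02 in animal 32 and at 5.38 to 6.87 in the others, and animal 32 was at -1.33 at T1. Its 5 probes gave the same picture, with correlations of 0.9997 or higher. RBIS, a ribosome biogenesis factor, was at -2.60 in animal 32 at rest and at -2.22 at T1, against -0.03 to 1.21 in the other resting animals.

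Animal 47 was distinct in named genes of several kinds. The 10 farthest above the other animals were UPP1, TGM3, NR2E1, C1QA, C1QC, MLN, C1QB, ETS2, PFKFB3 and DCLRE1A. All 3 chains of C1q were thus included. C1QB was at -0.11 in animal 47 and at most -2.79 in the others, and C1QC at -0.94 and at most -3.81. PFKFB3, which drives glycolysis, was at -0.81 against at most -3.35, and the transcription factor ETS2 at 1.13 against at most -1.42. The 10 farthest below were DDX43, DAPL1, CTSW, SAMD3, VPREB3, NPY, AKR1E2, NREP, CD274 and GBP5. CTSW, a protease of cytotoxic lymphocytes, was at 3.46 in animal 47 and at 5.23 to 6.53 in the others. VPREB3, a B cell gene, was at -2.15 against -0.41 to 1.07, and CD274, the ligand PD-L1, at -5.08 against -3.57 to -2.70.

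Genes that varied together were grouped among the 200 gene names with the largest SD by average linkage on 1 minus the correlation, which gave 10 groups of at least 5. The groups were made from these values and received no test. A score is the mean deviation of a group's members from their own means, in log2 units.

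The largest group had 64 gene names led by TBC1D2, MMP27, KBTBD7, TG, SLC2A5, IL1R2, ARMC12 and DCLRE1A. Its score was 2.94 in animal 47, 1.03 in animal 41 and at most 0.03 in the others. The median pairwise correlation of its members was 0.73 and fell to 0.35 without animal 47, and in the 13 other horses at T1 it was 0.23. Without animal 47, 22 of the 64 stayed together. 

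The next group was not carried by animal 47. It had 39 gene names led by JAGN1, NSDHL, PLCD1, PRPF8, IDH3B, EGFL8, MZB1 and EIF2B5, and it also held IGHE, IGHG3 and F13A1. Its score was highest in animals 32 (1.55), 29 (1.25) and 2 (1.11) and lowest in animal 40 (-1.69). The median pairwise correlation was 0.73 with and 0.74 without animal 47, and 0.47 in the 13 other horses. Without animal 47, 37 of the 39 stayed together.

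Smaller groups had recognisable members. A group of 12 with GZMB and GNLY, which encode killing proteins of cytotoxic cells, was highest in animal 13 (1.49) and lowest in animal 47 (-1.73). Its median pairwise correlation was 0.76, 0.73 without animal 47 and 0.27 in the 13 other horses, and 3 of the 12 stayed in one group without animal 47. A group of 9 held HBB, HBA2, LTF, PAQR5 and EQMHCC1, with scores of 2.998 in animal 47, 1.98 in animal 15, 0.96 in animal 18 and 0.86 in animal 2 and negative values in the rest. Its median pairwise correlation was 0.85, 0.77 without animal 47 and 0.59 in the 13 other horses. EQMHCC1 and the globins were high in the same 4 animals, but animal 29 was high for EQMHCC1 and lowest for HBB.

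Further groups separated single animals. A group of 7 with NTF3, STIMATE, MTG1, DENND2A and PIGA was at 2.87 in animal 2, and one of 5 with RDH13 at 2.77 in animal 13. Their median correlations in the 13 other horses were 0.06 and -0.11. Another 5 gene names were at -3.77 in animal 32. Groups led by RIMS4 (10 gene names, highest in animal 15), by THY1 and CLEC4E (6, lowest in animal 2 at -2.30 and highest in animal 47 at 2.21, with a median correlation of -0.10 in the 13 other horses) and by SLC1A5 (5, lowest in animal 15) completed the 10.

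**Figure D3:**
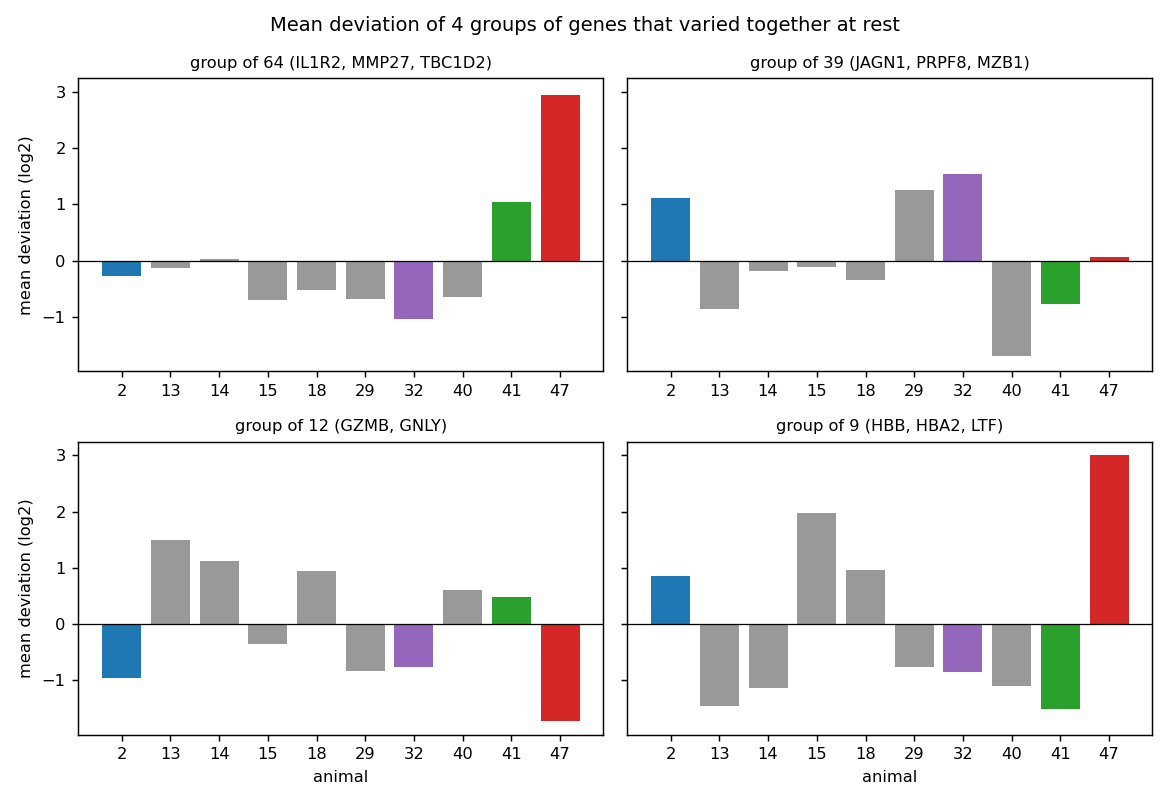
Mean deviation (log2, y axis) of 4 groups of genes that varied together, with 1 bar per resting animal and 0 as the mean of each gene. The group of 64 is carried by animal 47 (2.94) and animal 41 (1.03), whereas the group of 39 runs from -1.69 in animal 40 to 1.55 in animal 32.

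Marker genes of cell types and processes were read list by list. Of 28 lists with at least 2 members detected in all 10 animals, 24 had a median SD above 0.41 and 23 a median pairwise correlation above that of all gene names, which was 0.00. Genes of a list share the arrays and the normalization, so their correlations are a description.

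The tightest list was that of the cytosolic ribosomal proteins. Its 68 members had a median pairwise correlation of 0.83 and 0.80 without animal 47. The score was -0.83 in animal 32 and -0.60 in animal 47 and lay between -0.00108 and 0.36 in the others. The cell division list (18 genes, 0.77) was lowest in animal 47 at -0.88 and fell to 0.57 without it. The 8 transcripts of the mitochondrial genome had a median correlation of 0.62, and animals 41, 47 and 32 had the lowest scores (-0.55, -0.46 and -0.40).

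The lymphocyte lists were read with and without animal 47. The B cell list (17 genes) kept its median correlation, at 0.58 and 0.55, and the females 14, 15 and 29 had its highest scores (0.56, 0.62 and 0.57). The T cell list (19 genes) went from 0.49 to 0.22 and the cytotoxic lymphocyte list (18 genes) from 0.53 to 0.30. Animal 47 was the lowest for all 3, at -0.67, -0.80 and -1.15.

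The neutrophil list (18 genes) had a median correlation of 0.36 that fell to 0.05 without animal 47. Its score was 1.21 in animal 47, 0.53 in animal 41 and between -0.37 and -0.07 in the others. The glucocorticoid-responsive list (8 genes) had a score of 1.71 in animal 47 and 0.41 in animal 41, and its median correlation fell from 0.39 to 0.00. The monocyte list (13 genes) was at 1.03 in animal 47 and at most 0.16 in the others, with a median correlation of 0.11 both with and without that animal. The 3 C1q chains carried this score, since without them the other 10 genes were at 0.32 in animal 47 and at most 0.13 in the others. CX3CR1, a chemokine receptor of patrolling monocytes, had its lowest level in animal 47 (-4.98), and LYZ, CSF1R and MS4A7 were also below their means there. The others of these 10 lay above their means. CD14 (7.64), VCAN (3.47), LGALS3 (3.88) and VSIG4 (-2.89) had their highest levels in animal 47, and CD68 and CCR2 were above their means.

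Erythroid genes (9 detected in all) had scores of 1.32 in animal 47, 0.91 in animal 15 and 0.61 in animal 2 and a lowest score of -0.81 in animal 40. Basophil genes (4 detected in all) were highest in animal 2 at 1.29, and the next animal was at 0.19. MS4A2, the beta chain of the high-affinity IgE receptor on basophils and mast cells, was at -1.49 in animal 2 and at -3.78 to -2.28 in the others. Interferon-stimulated genes (26) had scores from -0.58 in animal 47 to 0.37 in animal 15, with a median correlation of 0.19. The clock list (11 genes) and the secreted cytokines (17 genes) had median correlations of 0.00 and 0.02.

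**Figure D4:**
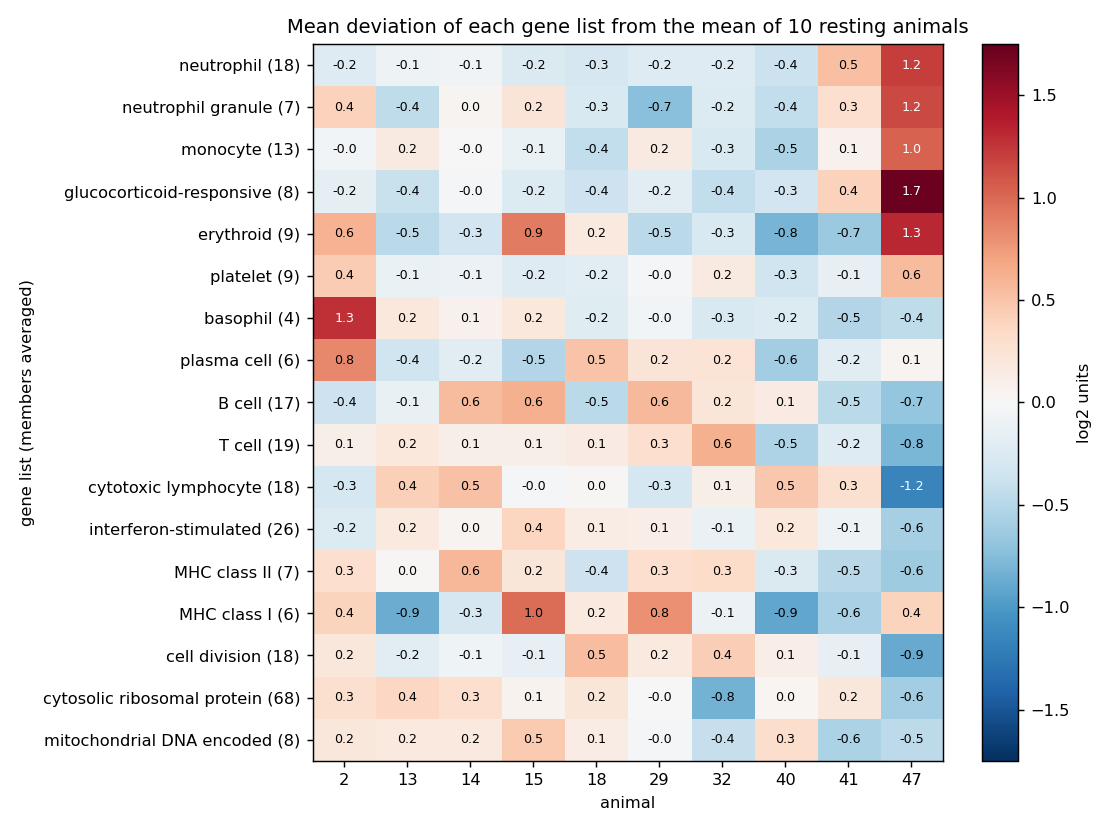
Mean deviation (log2) of the marker lists from their gene means in each of the 10 resting animals. Animal 47 is high for neutrophil (1.21) and glucocorticoid-responsive (1.71) genes, high for monocyte genes (1.03, or 0.32 without the C1q chains) and low for cytotoxic lymphocyte genes (-1.15), while animal 32 is lowest for ribosomal protein genes (-0.83).

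Relations between single marker genes were tested with 1 gene taken from each of 9 lists, the first in the list detected in all animals. These were CSF3R (neutrophil), CD3D (T cell), PRF1 (cytotoxic lymphocyte), CD79B (B cell), CSF1R (monocyte), MS4A2 (basophil), ITGA2B (platelet), ALAS2 (erythroid) and MX1 (interferon-stimulated). Of the 36 pairs, 2 passed a permutation test of Pearson's r after Benjamini-Hochberg adjustment, and 1 passed by rank.

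CSF3R, the receptor of the growth factor that sustains neutrophils, and CD3D, a chain of the T cell receptor complex, were negatively related. CSF3R ranged from 2.15 to 4.58 (median 2.90) and CD3D from 1.77 to 3.45 (median 2.80). Their r was -0.94 (permutation p = 0.00016, adjusted p = 0.00576) and their Spearman's rho was -0.82 (permutation p = 0.00534, adjusted p = 0.0961). Without the 2 animals farthest from the median of CSF3R (32 and 47) r was -0.77, without animal 47 alone it was -0.87, and in the 13 other horses at T1 it was -0.51. The relation did not extend to the whole T cell list, where 11 of 19 genes had a negative and 8 a positive r with CSF3R (median -0.25). The r was -0.88 for CD3G and -0.87 for LCK, but 0.24 for CD3E, 0.37 for IL7R and 0.40 for CCR7.

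CSF3R and ITGA2B, the platelet integrin that binds fibrinogen, were positively related. The r was 0.82 (permutation p = 0.00224, adjusted p = 0.0403) and rho was 0.93 (permutation p = 0.00027, adjusted p = 0.00972). The r was 0.81 without animals 32 and 47, 0.86 without animal 47 and 0.68 in the 13 other horses. Over the 9 platelet genes detected in all animals r with CSF3R ranged from -0.27 (SPARC) to that of ITGA2B, with a median of 0.37 and a value of 0.02 for GNG11. These list values are a description, added after the tests were seen. Without animal 47, and also without animal 32, 0 of the 36 pairs passed after adjustment. No scan day held more than 2 resting arrays, so no correlation within a day could be computed. In the 3 pairs of resting animals scanned on the same day, the difference in CSF3R was -0.28 (animal 18 minus 13), -0.77 (40 minus 2) and 1.72 (47 minus 14), in CD3D 0.26, 0.17 and -1.31, and in ITGA2B -0.21, -1.66 and 0.94.

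**Figure D5:**
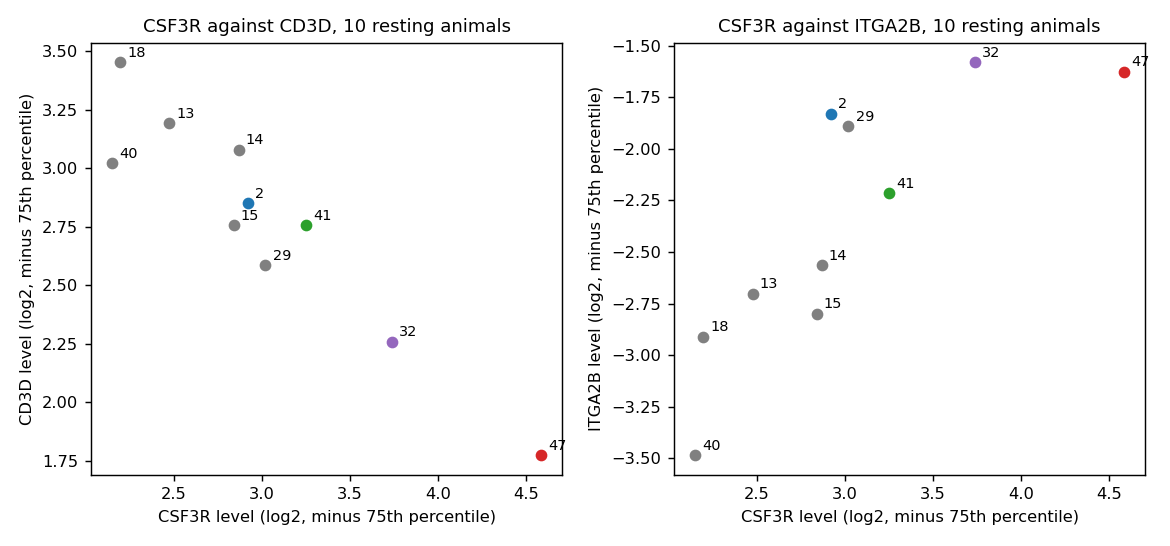
Levels (log2, relative to the 75th percentile of each array) of CSF3R on the x axis against CD3D (left) and ITGA2B (right) on the y axis, with 1 labelled point for each of 10 resting animals. CD3D falls from 3.45 in animal 18 to 1.77 in animal 47 as CSF3R rises (r = -0.94), and ITGA2B rises with CSF3R (r = 0.82).

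The principal components gave the same picture of the animals. The first component held 28.1% of the variance of the 15156 gene names and ran from animal 40 to animal 32. The second held 21.3%, and animal 47 stood at 0.89 on it while no other animal exceeded 0.15. The third held 13.8% and ran from animal 13 to animal 2. Without animal 47 the first component held 33.6% and again ran from animal 40 to animal 32. Over the 10 arrays the first component, positive toward animal 32, had a correlation of 0.56 with the share of probes well above background, given as a description, and the part of array quality in this axis was not tested.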

How the data were processed

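The authors hybridised Cy3-labelled whole blood RNA to custom Agilent 44K equine arrays and deposited one scanner file per array. Per the file headers, Agilent Feature Extraction gave the processed intensity (background-subtracted, linear) and the flag for probes well above background on each array. Per the labels, limma was among the submitters' tools, and the deposited table of log2 values, used as an alternative only, had medians near 7.09 with normalization not stated in it. Here the log2 processed intensity minus each array's 75th percentile was used, control spots and outlier spots were left out, repeated spots were averaged, and the brightest probe stood for a gene name. The brightest probe was the one with the highest mean level over all 26 arrays, T0 and T1. Of 24415 gene names, 9795 had no symbol. Spread was read over gene names well above background on all 10 resting arrays. Sex and set were tested with limma 3.58.1 (R 4.3.3) over gene names detected (well above background) in 3 or more of the 10 animals, with Benjamini-Hochberg adjustment at 0.05. The permutation tests (two-sided, 100000 resamples) used numpy 2.4.6.

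The named genes were the 20 brightest, 25 most and 10 least variable with a symbol, the genes on in 3 to 7 animals with a gap of 2 log2 units, up to 8 leading genes per group, the genes past the sex test, the 10 farthest on each side in animal 47, and members of marker lists taken from general knowledge. SLC25A3 (SD 1.66) was not counted among the 25 most variable. The members and lists were chosen with earlier results of these data known. Alternatives were normexp with quantile normalization, quantile normalization, the deposited table, the mean of probes, other detection filters, scan day as a block, animal as a block over 26 arrays, and each animal left out. The limma fit was tested on simulated data with 17879 gene names, where it recovered 14% of genes changed by 1 log2 unit between the sexes, 82% at 2 and 100% at 4. The number of arrays limits the precision. Each resting horse has 1 array, so the spread includes technical error, and only the 3 training horses, named by the same animal number in the labels, pair T0 with T1. A few genes that met these rules are not reported here.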

Additional observations from a re-analysis of the deposited data

Results flagged for a closer look

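Of 98 sets of 10 resting values examined, 10 had 1 animal far from the others, measured as the gap to the nearest animal divided by the whole range, and compared with Dixon's critical value for 10 samples. Chance passes that value in about 1 of 20 sets not chosen by their own values, and animal 47 was the distant one in 9 of the 10. The single genes were chosen for a large SD over the same 10 values, so that rate does not hold for them and their ratios are a description. The lists were chosen with earlier results known and their scores share the same arrays, so their ratios are a description as well. Among them animal 47 was distant at the high end for UPP1 (0.561), C1QA (0.547), TGM3 (0.582) and MLN (0.559). Among list scores it was distant at the high end for monocyte genes (0.551, carried by the 3 C1q chains), immediate early and NF-kB genes (0.567) and glucocorticoid-responsive genes (0.606), and at the low end for cytotoxic lymphocyte genes (0.504) and cell division genes (0.479). Animal 2 was distant at the high end for basophil genes (0.607).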

How the results depend on the processing

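Of 188 values of the main comparisons under alternatives, 164 were kept, as were 229 of 262 values of single genes. A count was kept within 1.5-fold of its main value, and a count of 0 only at 0. An SD or a share of variance was kept within its standard error from leaving out each animal. A correlation or sex difference was kept if it passed with the same sign. Only these last could reverse, and 0 did. With normexp and quantile normalization the median SD between animals was 0.27 (0.2664), 6 groups varied together, 4 genes differed between the sexes, 3 were on in some animals and 9 lay in 2 levels. With the deposited table the median SD was 0.28 (0.2775) and 10 genes lay in 2 levels. With the mean of probes 12 of the 20 brightest names remained. Of the 25 most variable names 11 remained with a detection filter of 5 arrays and 11 with the median absolute deviation. With detection on all 10 arrays 1 gene differed between the sexes. A gap of 1 log2 unit gave 64 genes on in some animals. For genes in 2 levels, whose alternatives were added after seeing the data, a gap of 1.5 gave 36 and at least 3 animals a side gave 11.

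Leaving out each animal in turn gave 15239 to 15405 gene names detected on all arrays, 4387 to 4587 on none, 19 to 20 of the brightest and 15 to 24 of the most variable names, a median SD of 0.383 to 0.421, 7 to 11 groups, 21 to 25 lists above all gene names in correlation and 22 to 25 in SD, 0 to 3 related gene pairs (0 without animal 47 or 32, 1 without animal 13, 14, 15, 18 or 41), 6 to 10 genes differing between the sexes, 0 to 1 between the sets (1 without animal 2 or 18), and 25.5% to 33.6% of variance on the first component. The lowest count of variable names (15) and the lowest median SD came without animal 47. The CSF3R and CD3D pair passed in 12 of 14 alternatives (adjusted p 0.0036 to 0.0637) and CSF3R and ITGA2B in 7 of 14 (0.013 to 0.159). With all 26 arrays and the animal as a random replicate block, 7 genes differed between the sexes and 0 between the sets, but EPCAM and DN511173 lost their calls (-7.53 and -7.38).

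The 10 animals, 3 of them female, limit all comparisons. A probe below background gives only a bound.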
